A study of Mus musculus with 2 samples.

Results

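The loop-dense windows were the 1 Mb stretches of the mouse autosomes in which at least 5 chromatin loops had their midpoint. Chromosomes 1 to 19 were divided into 2470 windows of 1 Mb from their first base, and each of the 4858 autosomal loops was given to the window that held the midpoint between the outer borders of its anchors. The windows were selected on a measured value, the number of loops listed in each, and 251 of the 2470 had 5 or more. They held 1457 loops. The number of loops in a window is therefore a description of the choice and not a finding, and the measures that depend on it (anchor sharing, and the pixel sizes, since loops of every size were counted) are described without a test.

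The loops came from Micro-C of V6.5 cells, a line of male mouse embryonic stem cells grown on gelatin. They were transfected with siGLO, a control siRNA, used at 50 nM, and harvested after 48 hours, and their chromatin was fixed with disuccinimidyl glutarate and formaldehyde and digested with micrococcal nuclease. There were 2 samples in 1 group, siControl, and 1 loop list for the group, so nothing was compared between conditions. The list held no value per sample and no read depth, and the spread between replicates could not be measured. The labels do not say whether separate cultures were used for the 2 samples. The line was not checked against marker genes, because no expression was measured.

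A chromatin loop is a pair of sites, the anchors, that touch each other more often than their surroundings do. Many loops form when the ring complex cohesin extrudes chromatin until it meets CTCF, a DNA-binding protein that halts it in an orientation-dependent way; others join promoters and enhancers. In embryonic stem cells, loops surround both the genes of the pluripotent state and silent developmental genes.

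The windows are too long to print, so the sequence shown is that of 3 promoters whose first transcribed base lay inside anchors of the windows richest in loops. Fam43a and Foxa2 each had their start inside an anchor of 2 loops, and Hoxa3 is the entry from the edge of a homeobox cluster. Fam43a is little characterised, Foxa2 encodes a pioneer factor of endoderm, and Hoxa3 a homeobox factor of the anterior body axis. Each sequence holds the 250 bases before the start and, in capitals, the first transcribed base. They are from RefSeq on GRCm38.p6, the assembly that mm10 names, at chr16:30599473-30599723 on the plus strand, chr2:148046969-148047219 on the minus strand and chr6:52213067-52213317 on the minus strand.
Fam43a: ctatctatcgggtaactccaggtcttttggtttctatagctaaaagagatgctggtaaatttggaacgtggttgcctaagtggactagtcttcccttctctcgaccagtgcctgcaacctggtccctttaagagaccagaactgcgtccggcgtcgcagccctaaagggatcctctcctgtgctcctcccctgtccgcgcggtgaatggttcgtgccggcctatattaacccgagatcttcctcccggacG
Foxa2: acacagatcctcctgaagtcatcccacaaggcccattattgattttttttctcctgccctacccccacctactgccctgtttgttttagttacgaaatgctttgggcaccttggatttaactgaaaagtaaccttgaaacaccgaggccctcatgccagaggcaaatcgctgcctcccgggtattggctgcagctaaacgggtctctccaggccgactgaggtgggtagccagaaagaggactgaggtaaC
Hoxa3: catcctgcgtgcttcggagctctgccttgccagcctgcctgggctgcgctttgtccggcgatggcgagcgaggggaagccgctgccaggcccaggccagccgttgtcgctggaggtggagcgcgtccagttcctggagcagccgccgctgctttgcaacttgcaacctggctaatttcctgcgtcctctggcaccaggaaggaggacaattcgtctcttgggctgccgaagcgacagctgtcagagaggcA
Their GC contents over these bases were 53.8%, 51.0% and 64.5%.

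Most windows held few loops. There were 686 with none (27.8%), 498 with 1, 447 with 2, 343 with 3 and 245 with 4. Of the loop-dense windows 136 held 5 loops, 62 held 6, 28 held 7, 16 held 8 and 9 held 9. They held 14.0% (windows of 5), 7.66% (of 6), 4.03% (of 7), 2.63% (of 8) and 1.67% (of 9) of the autosomal loops. The first windows in genome order on each side of the limit differed by 1 loop. Just inside lay chr1:3000001-4000000, with 5 loops of 90 to 680 kb and the gene Xkr4, and chr1:45000001-46000000, with 5 loops of 200 to 940 kb around the collagen genes Col3a1 and Col5a2. Just outside lay chr1:17000001-18000000, with 4 loops of 240 to 960 kb, and chr1:37000001-38000000, with 4 loops of 170 to 465 kb and 14 protein-coding genes.

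**Figure D1:**
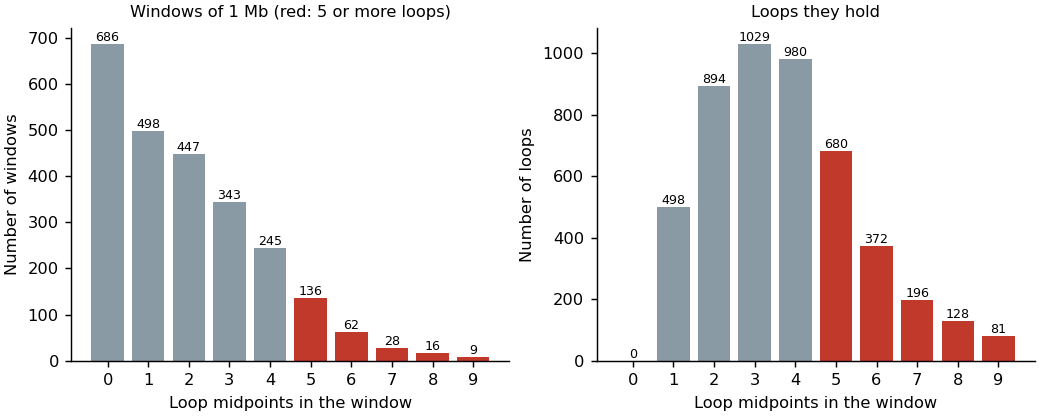
Number of 1 Mb windows (left panel) and number of loops they hold (right panel) against the number of loop midpoints in the window. Red bars are the 251 windows with 5 or more loops; 136 of them sit at the lower limit of 5.

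The loop-dense windows lay on every autosome, but in unequal shares. On chromosome 16, 16 of 99 windows were loop-dense (16.2%) and on chromosome 2, 28 of 183 (15.3%), while on chromosome 7 only 6 of 146 were (4.11%) and on chromosome 19, 3 of 62 (4.84%). They also adjoined each other. Of the windows next to a loop-dense window 16.8% were loop-dense too, against 11.7% next to a window with 1 to 4 loops and 4.30% next to a window with none. There were 174 single windows, 28 pairs and 7 runs of 3.

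The genes named in these runs were chosen after their positions were seen. The run at chr2:172000001-175000000 held 19 loops and 34 protein-coding genes, among them Tfap2c, a transcription factor of the germline and trophectoderm, Bmp7, a secreted signal, Ctcfl, the germline paralogue of Ctcf, and the imprinted gene Gnas. The run on chromosome 13 from 40 to 43 Mb held 17 loops, with Tfap2a, a factor of neural crest, and Edn1, the vasoconstrictor endothelin. The run on chromosome 5 from 73 to 76 Mb held 16 loops, with the receptor tyrosine kinase genes Pdgfra, Kit and Kdr side by side. A gene-poor run lay on chromosome 3 from 111 to 114 Mb, with 17 loops and 8 protein-coding genes, of which 7 were amylase genes. The other 3 runs, on chromosomes 8, 15 and 1, held 19, 19 and 16 loops.

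Loop-dense windows held about as many protein-coding genes as windows with 1 to 4 loops, and more than windows with none. They held a median of 7 protein-coding genes (quartiles 5 and 12, mean 9.54 ± 8.03 SD over 251 windows). Windows with 1 to 4 loops held a median of 6 (quartiles 3 and 13, mean 9.37 ± 9.50 over 1533 windows). The difference of 1 gene between these medians was 0 with 10 and 25 kb pixels alone and 2.5 with loops placed by their upstream anchor. Windows with no loop held a median of 1 (quartiles 0 and 6) over the 647 that had a gene record, and 39 further windows had neither a gene nor a loop. A window with no protein-coding gene was found 5 times among the loop-dense ones (1.99%, Wilson 95% interval 0.854 to 4.58%) and 74 times among those with 1 to 4 loops (4.83%, 3.86 to 6.02%). It was found 194 times among the 647 with no loop but a gene record (30.0%, 26.6 to 33.6%). The 39 further windows also lacked a protein-coding gene and are not in that share, which is therefore too low for all windows with no loop. Across single loop counts the median was 1 gene with no loop, 4 with 1 loop and 7 with 2, 3, 4 or 5 loops. It was then 7.5, 8, 6.5 and 6 genes with 6, 7, 8 and 9 loops. The intervals here and below cover counting error over windows, genes or loops of this list only.

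Genes for long non-coding RNAs were more numerous in windows with more loops. Their median was 7 in loop-dense windows (quartiles 4 and 10), 5 in windows with 1 to 4 loops (3 and 8) and 2 in windows with no loop (1 and 4). By loop count it went from 2 with no loop to 6 with 5 loops, 8 with 6 and 10 with 7, and stood at 7 and 8 with 8 and 9 loops, where windows were few. Loop-dense windows held 15.2% of the lncRNA records (1884 of 12408), against 11.6% of the protein-coding ones (2394 of 20665). Of miRNA genes they held 13.5%, of tRNA genes 18.2%, of pseudogenes 9.49% and of the variable segments of antigen receptor genes 1.27% (5 of 394, with 82.0% in windows without a loop). Of protein-coding genes 18.9% were in windows without a loop. tRNA genes and receptor segments lie in clusters, so few independent places stand behind their shares.

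**Figure D2:**
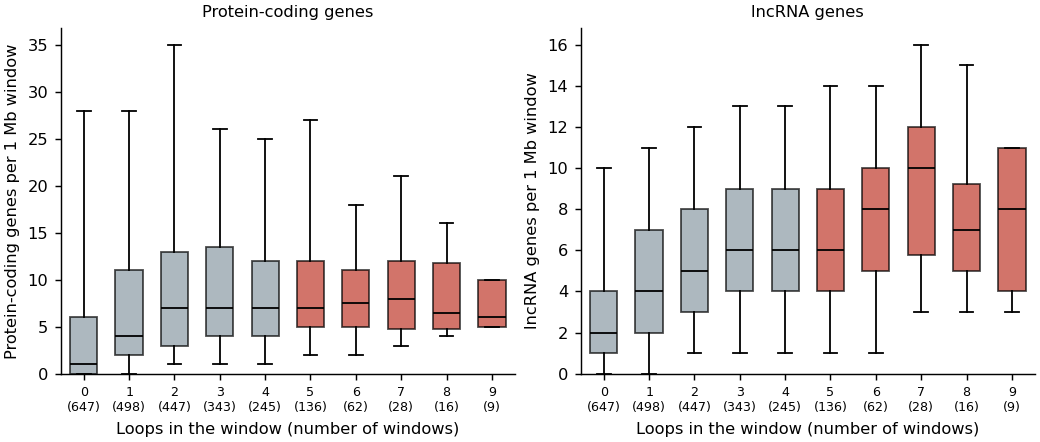
Protein-coding genes (left) and lncRNA genes (right) per 1 Mb window against the number of loops in the window, with the number of windows in brackets. Boxes span the quartiles, lines are medians and whiskers the 5th to 95th percentiles; red boxes are loop-dense windows. The protein-coding median is level at about 7 from 2 loops on, and the lncRNA median reaches 10 at 7 loops.

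Genes were longer in loop-dense windows than in the others. Their median length was 22.7 kb (quartiles 9.08 and 58.0 kb, 2394 genes), against 18.8 kb in windows with 1 to 4 loops (14371 genes) and 10.8 kb in windows with none (3900 genes). Protein-coding records covered a median of 50.6% of a loop-dense window, 47.1% of a window with 1 to 4 loops and 18.3% of a window with none. The range among loop-dense windows was wide, from none to 99.4%.

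At the gene-poor end stood 5 loop-dense windows without a protein-coding gene. They started at 86 Mb of chromosome 16, 100 Mb of chromosome 2, 111 and 112 Mb of chromosome 3 and 39 Mb of chromosome 3. Their loops spanned 615 to 2575 kb in the first, 250 to 1650 kb in the second and 830 to 3375 kb in the last. In the pair beside the amylase genes they spanned 2400 to 3925 kb and 225 to 2100 kb. Median spans were 1080 kb in the first, 3175 and 1212.5 kb in the pair and 1250 kb in the last. In the second the median was 430 kb, within the quartiles of 190 and 520 kb of all loops in loop-dense windows. All loops of the pair had 25 kb pixels, at which the median span in loop-dense windows was 600 kb. In 4 of the 5, counting the pair as 2 windows, all loops had an anchor outside the window that held the midpoint. At the gene-rich end, the window of the clustered protocadherins held 67 genes with loops of 125 to 340 kb. The window at 21 Mb of chromosome 13 held 42 genes with loops of 35 to 175 kb, that at 137 Mb of chromosome 5 held 39 with loops of 85 to 310 kb, and that at 84 Mb of chromosome 8 held 36 with loops of 70 to 250 kb. The window at 50 Mb of chromosome 14, with 35 genes, had longer loops of 290 to 1250 kb. These extremes were ranked by gene number after the values were seen.

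The pixel size of a loop is the width of its anchors, 5, 10 or 25 kb, at which the authors' caller listed it. Of the 1457 loops in loop-dense windows 421 had 5 kb pixels (28.9%, Wilson 95% interval 26.6 to 31.3%), 892 had 10 kb pixels (61.2%) and 144 had 25 kb pixels (9.88%, 8.45 to 11.5%). In the other windows the shares of the 3401 loops were 24.8% (23.4 to 26.3%), 60.7% and 14.5% (13.3 to 15.7%). In windows with a single loop they were 16.5% (13.5 to 20.0%), 64.1% and 19.5% (16.2 to 23.2%). Because loops of every size were counted to choose the windows, these shares only describe them.

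Single loop-dense windows departed widely from these shares. In 62 of the 251 (24.7%) no loop had 5 kb pixels, in 51 they outnumbered the coarser ones, in 3 all loops had them, and in 56 all 3 sizes occurred. Without the 5 kb loops, 111 of the 251 windows (44.2%) still reached 5 loops. The share of 5 kb pixels among loops of loop-dense windows was 50.5% on chromosome 11 (47 of 93), 43.2% on chromosome 18 and 41.2% on chromosome 2, but 11.8% on chromosome 17 and 12.9% on chromosome 7. The 15 such loops of chromosome 19 included none of 5 kb.

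Spans, the distances between anchor midpoints, were nearly those of the other loops. The median was 315 kb in loop-dense windows (quartiles 190 and 520 kb, range 35 to 5100 kb) and 330 kb elsewhere (190 and 570 kb, range 35 to 6700 kb). Within a pixel size the medians were 195 against 188 kb at 5 kb, 345 against 340 kb at 10 kb and 600 against 650 kb at 25 kb. The upper tail differed more. Loops over 1 Mb were 5.90% of those in loop-dense windows (86 loops, 4.80 to 7.23%), 9.38% of the others (319 loops, 8.45 to 10.4%) and 17.3% of those alone in their window (14.2 to 20.8%). Loops under 100 kb were equally frequent, 4.19% against 4.15%. An anchor outside the window was found for 578 of the 1457 loops (39.7%), so a window names the centre of a loop and not the whole of it.

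**Figure D3:**
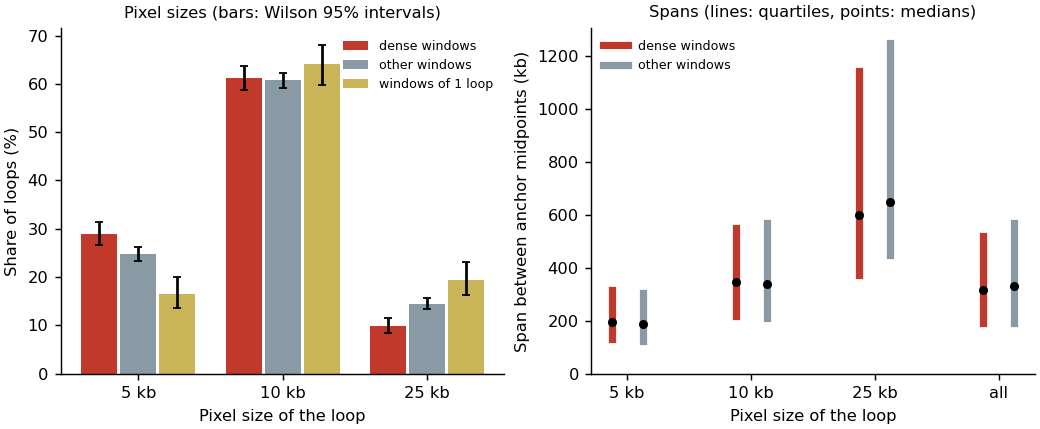
Left, share of loops by pixel size in loop-dense windows, other windows and windows of 1 loop, with Wilson 95% intervals. Right, spans in kb by pixel size in loop-dense and other windows, with points at the medians and lines over the quartiles. The 5 kb share is 28.9%, 24.8% and 16.5% in the 3 classes, while the median spans of loop-dense and other windows lie close together.

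The authors' peak score, a number of the caller without a unit, had a median of 4.22 in loop-dense windows (quartiles 3.60 and 5.15) and 4.12 elsewhere (3.58 and 4.93). At 25 kb pixels the medians were 4.06 and 3.81. The 3 highest scores in loop-dense windows stood far from the rest. They were 293, 277 and 194, and all lay on chromosome 4 between 121 and 123 Mb, beside a cluster of predicted genes and Mycl, a Myc family gene. All 3 had 10 kb pixels and an anchor between 121990001 and 122020000. The next was 40.8, at a window of chromosome 7 with Cacng and Pira genes. The value of the peak pixel at those 3 loops was 7.33, 6.91 and 4.84, within the range of 2.76 to 18.1 for 10 kb pixels in these windows. Why their scores stand apart was not tested.

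Inside the windows the loops were mostly arranged side by side. Of 3650 pairs of loops with their midpoint in the same loop-dense window 52.7% did not overlap, 20.4% were nested, 14.3% shared an anchor and 12.6% crossed. In windows of 2 to 4 loops the shares of 2946 pairs were 50.1%, 21.1%, 18.8% and 9.91%. Only 3 pairs, in 3 windows, had both anchors within 25 kb of each other, so repeated listing of nearly one loop at different pixel sizes added little to the counts.

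Anchors with a base in common were merged before they were counted. Of the loops in loop-dense windows 821 (56.3%, 53.8 to 58.9%) shared a merged anchor with another loop, against 35.3% of the other loops and 10.4% of loops alone in their window. The count of loops that chose the windows bears on this share. Of 2442 merged anchors 389 (15.9%) took part in 2 or more loops and 65 (2.66%) in 3 or more. At 56 of those 65 all loops ran to the same side and at 9 to both sides. A gene end lay in 14 of the 65. In 35 windows no anchor was shared. The most loops at 1 anchor were 7, at chr3:113075001-113100000 beside the amylase genes, all running to lower coordinates over 225 to 3550 kb. Anchors of 4 loops included one at Bcl6, a transcriptional repressor of germinal centre B cells (330 to 1350 kb), one at Lsamp, a neuronal adhesion gene (725 to 1610 kb), and one at Grik4, a glutamate receptor gene (155 to 620 kb).

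An end of a protein-coding gene lay in 1 or both anchors of 486 of the 1457 loops (33.4%, 31.0 to 35.8%), against 33.2% of the other loops and 33.2% of all autosomal loops. Ends lay in both anchors of 5.01% and 5.59%. The shares of loop-dense and other windows differed by less than their intervals, and the sign of the difference changed with the setting. It was 0.189 percentage points here, -0.329 with windows of 6 or more loops and -0.547 with 10 and 25 kb pixels alone. It was 0.841 with the grid shifted by 500 kb, 1.75 with anchors widened by 5 kb and 2.42 with loops placed by their upstream anchor. In 43 loop-dense windows (17.1%) no loop had a gene end at an anchor, and in 3 every loop had one. By pixel size the share rose with anchor width in both classes, from 26.8% at 5 kb through 34.1% at 10 kb to 47.9% at 25 kb in loop-dense windows and from 27.0% through 33.0% to 44.3% in the others.

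The 9 windows with 9 loops were not alike. The one at chr2:147000001-148000000 was a stretch of 4 protein-coding genes and 13 lncRNA genes, with genes covering 9.94% of it. Its genes are Xrn2, an exonuclease, the neural homeobox genes Nkx2-4 and Nkx2-2, and Pax1, a factor of the sclerotome. An end of Nkx2-4 met a loop of 125 kb with a score of 2.94. An end of Nkx2-2 met one of 215 kb with a score of 5.29 that started within 10 kb of the first. A loop of 175 kb (score 5.58) joined an anchor inside Nkx2-2, with its start in the promoter entries, and an anchor with the start of Pax1. From an anchor with the same start of Nkx2-2 a further loop of 860 kb with a score of 10.1 ran to the start of Foxa2. From within Pax1 one of 680 kb with a score of 8.28 ran to the start of Foxa2 as well. Foxa2 itself lies in the next window, which held 2 loops. The arc map shows this window as 2 long arcs to Foxa2 over shorter ones.

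The window at chr6:51000001-52000000 lay before the Hoxa cluster, with 6 protein-coding and 11 lncRNA genes. The anchor at chr6:51200001-51210000, which holds no gene end, took part in 4 loops of 230, 320, 380 and 640 kb, all toward higher coordinates. The 230 kb loop ended at Nfe2l3, a gene of a stress-response transcription factor, and the 320 kb loop at Snx10, a sorting nexin gene. Hoxa6 lay at the far anchor of a loop of 1025 kb with a score of 9.32, and Hoxa3 and Hoxa7 at that of a 630 kb loop with a score of 3.93. An end of Skap2, a gene of an adaptor protein, met a 260 kb loop with a score of 6.52. The window before it, from 50 to 51 Mb, held 8 loops.

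At chr16:30000001-31000000, 3 of the 9 loops had an end of Fam43a at an anchor. One end or the other of Fam43a, 3.08 kb long, lay in the anchors of 3 loops of 170, 390 and 260 kb, with scores of 3.44, 4.18 and 3.28, and Lsg1, a GTPase gene of ribosome assembly, lay at one of 770 kb with a score of 6.62. All 4 ran to higher coordinates, as did a 500 kb loop from the adjoining anchor. Hes1, a Notch target, lies near the start of this window. Its end met a loop of 325 kb of 25 kb pixels whose midpoint fell in the window before, which held 6 loops.

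Of the other windows with 9 loops, chr18:24000001-25000000 was the most spread out. No anchor was shared among its 9 loops, which had 18. Of these loops 6 had 5 kb pixels and 3 had a gene end, at Galnt1, a gene of mucin-type glycosylation, at Fhod3, a formin of heart muscle, and at Tpgs2. At chr2:22000001-23000000 all 9 loops had 10 kb pixels, with scores of 4.33 to 7.56, and only Myo3a, an unconventional myosin of the inner ear, had an end at an anchor. At chr4:32000001-33000000 3 loops left from 1 merged anchor before Bach2, a repressor of lymphocytes, and Bach2, Ankrd6 and Mdn1 each had an end at 1 loop. At chr10:3000001-4000000 all anchors lay inside the window and only Iyd, the iodotyrosine deiodinase gene, had an end at an anchor.

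The window at chr14:63000001-64000000 held Gata4 and Sox7, both factors of endoderm, and Tdh, an enzyme gene of threonine catabolism known for high expression in mouse embryonic stem cells. None of these 3 had an end at an anchor of the window's 9 loops, but anchors of loops of 165 and 170 kb lay inside Gata4. The gene ends at anchors were those of Blk, a B cell kinase gene, at 2 loops of 305 and 165 kb, and of Mtmr9 at one of 240 kb. The window at chr18:65000001-66000000 had loops of 105 to 440 kb, with Rax, a homeobox gene of the eye field, at one of 105 kb and Ccbe1, a gene of lymphatic vessel growth, at one of 290 kb.

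The 6 windows of 8 loops named by the same rule showed the same variety. At chr15:38000001-39000000 a loop of 225 kb had a score of 14.3, and Atp6v1c1, a proton pump gene, Cthrc1 and the Wnt receptor gene Fzd6 had an end at loops of 510, 380 and 100 kb. At chr14:121000001-122000000 a loop of 5100 kb stood beside 7 of 120 to 490 kb, and Slc15a1, a peptide transporter gene, had its end at 2 of them. At chr2:132000001-133000000 an end of Fermt1, a kindlin gene of skin, lay at 2 loops of 550 and 390 kb. In the other 3, on chromosomes 14, 18 and 1, 1 or 2 of the 8 loops had a gene end, at Tsc22d1, at Epb41l4a, and at Nabp1 and Stat4.

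**Figure D4:**
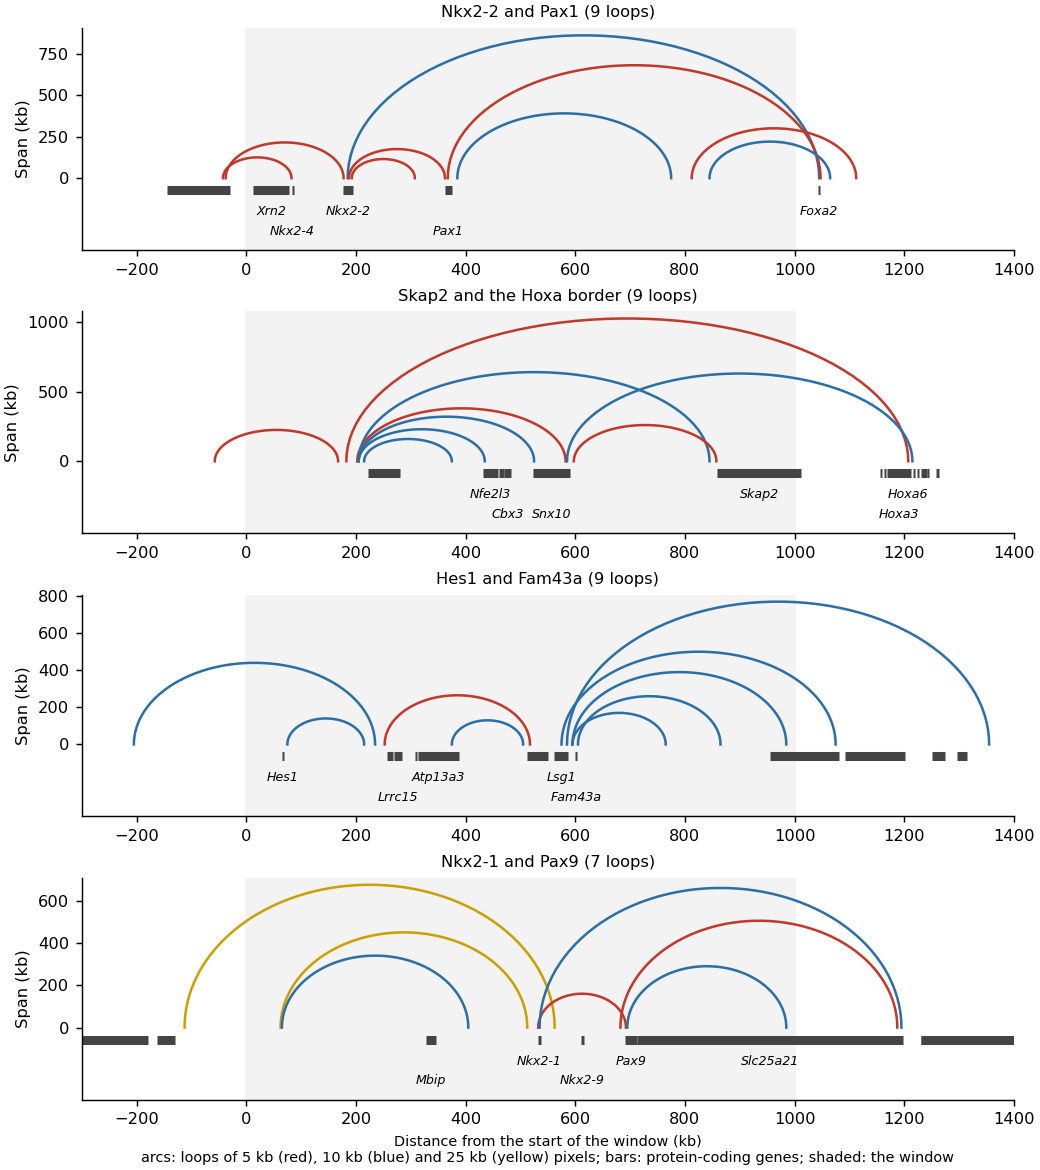
Loops of 4 loop-dense windows as arcs between anchor midpoints, against the distance in kb from the start of the window (shaded from 0 to 1000 kb); arc height is the span in kb, colour the pixel size, and grey bars are protein-coding genes, some named. Arcs of 860 and 680 kb reach Foxa2 in the first map, 4 arcs leave 1 anchor in the second, arcs leave the Fam43a and Lsg1 region to the right in the third, and an arc of 160 kb joins Nkx2-1 and Pax9 in the fourth.

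Gene families were read against the 11.6% of all autosomal protein-coding genes whose midpoint lay in a loop-dense window. Of 29 lists defined by symbol, 17 were above this share and 12 below it. Some genes belong to several lists, so the lists are not separate from each other. Many families sit in clusters, so a single window can decide a share. A list was also placed under 6 other settings, 5 with another choice of windows and 1 that gave a gene to every window it overlaps. Of the 29 lists 13 stayed on the same side of the share of all genes in every one. These settings reuse windows and are not independent of the main choice. The lower limit kept all 251 loop-dense windows, and the higher limit and leaving out 5 kb pixels each kept only a part of them. The overlap setting kept the same windows. Staying on one side is thus partly built in, and it cannot exclude that a single window decided a share. No list was tested, and the Wilson 95% intervals given for shares treat genes as independent, which clustered genes are not.

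The Pax and paired-like, the Nkx, LIM and Dlx, the Gata and Tfap2 and the proneural lists were above the share in all 6. Of the Pax and paired-like genes 8 of 33 were in loop-dense windows (24.2%, 12.8 to 41.0%), in 8 windows. They include Alx4, Pax1, Pax9, Six6, Hesx1, Rax and Pax2, and 5 of the 8 had an end at an anchor. Of all 2394 protein-coding genes in loop-dense windows 435 had an end at an anchor of the loops of these windows. Of the Nkx, LIM and Dlx homeobox genes 10 of 47 were (21.3%, 12 to 34.9%), in 7 windows, among them Nkx2-1, Nkx2-2, Lhx5 and Dlx2, which had ends at anchors. Of the Gata and Tfap2 genes 3 of 10 were (30.0%, 10.8 to 60.3%), Gata4, Tfap2a and Tfap2c. Of the proneural and related bHLH genes 5 of 33 were (15.2%, 6.65 to 30.9%), Id3, Id4, Hes1, Olig1 and Olig2. The intervals of the Gata and Tfap2 list and of the proneural list include the 11.6% of all genes. Counted by windows, 8 of the 31 that held Pax and paired-like genes were loop-dense (25.8%). For Nkx, LIM and Dlx genes it was 7 of 40 (17.5%), for Gata and Tfap2 genes 3 of 9 (33.3%). The proneural list had 4 of 31 windows (12.9%), close to the 11.4% of all windows with protein-coding genes.

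The window at chr12:56000001-57000000 shows how such genes were joined. Its 7 loops include one of 160 kb, with a score of 5.67, between Nkx2-1, a factor of thyroid, lung and forebrain, and Pax9, a factor of pharyngeal pouches and teeth. An end of Nkx2-1 also met a loop of 660 kb, with a score of 3.63, that reached the end of Slc25a21, a mitochondrial carrier gene, and Pax9 met one of 290 kb with a score of 3.58. Elsewhere Tfap2a had an end at a loop of 825 kb of 25 kb pixels, Tfap2c at one of 230 kb, Id3 at one of 75 kb and Id4 at one of 250 kb. At Tfap2a, 3 further loops of 770, 1090 and 1330 kb ended within 25 kb of it without touching its ends.

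Hox genes were above the share through a single cluster, 9 of 39 (23.1%, 12.6 to 38.3%), all Hoxd. The share was 0 with 10 and 25 kb pixels alone and 51.3% with the grid shifted. At chr2:74000001-75000000 there were 7 loops, of which 4 with spans of 360, 590, 705 and 1080 kb ended in 1 merged anchor at Evx2 and Hoxd13 and ran to lower coordinates. Sox genes (3 of 18, 16.7%) were above in 5 of the 6 other settings, T-box genes (2 of 16, 12.5%) in 3, and forkhead genes (4 of 41, 9.76%) below in 3. Both T-box genes, Tbx3 and Tbx5, lie in the window at 119 Mb of chromosome 5, with 5 loops of 230 to 920 kb and 18 lncRNA genes. By windows the T-box list was thus at 1 of 14 (7.14%), below the 11.4% of all windows with protein-coding genes.

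Of 40 genes of the pluripotent state 11 were in loop-dense windows (27.5%, 16.1 to 42.8%), in 10 of the 35 windows that held such genes (28.6%). The list was above the share in all 6 other settings. The 11 genes are Lefty1 and Lefty2, Nodal inhibitors, Sall4, Mycl, Mycn, Id3, Tbx3, Fgf4, Dnmt3l, Tdh and Spry4. Of them Id3 is also in the proneural list, Tbx3 in the T-box list, and Lefty1, Lefty2 and Fgf4 are among the signalling ligands. Id3 and Mycn, 2 of the 11, had an end at an anchor, against 435 of the 2394 protein-coding genes in loop-dense windows. Mycn met a loop of 520 kb with a score of 4.16. The window of Fgf3, Fgf4 and Fgf15 on chromosome 7 held 5 loops, one of 315 kb between the ends of Ano1 and Fgf15 (score 5.81). Of the signalling ligands 11 of 69 were in loop-dense windows (15.9%), above the share in 4 of the 6 other settings. At the window of Fgf8, a loop of 500 kb with a score of 4.04 joined Fgf8 and the homeobox gene Lbx1. Of 21 cohesin and Ctcf genes there were 2, Ctcfl and Wapl (9.52%).

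Solute carriers were the largest list that stayed above, 54 of 362 (14.9%, 11.6 to 19%) in 43 of the 277 windows that held them (15.5%). Its interval starts at the share of all genes. Ion channels (25 of 207, 12.1%), cytochrome P450 and Ugt genes (15 of 120, 12.5%) and cytosolic ribosomal protein genes (11 of 82, 13.4%) were close to the share of all genes and changed sides in 3, 1 and 3 of the other settings. Chemokines (7 of 39, 17.9%) changed sides in 5, and Eph, ephrin, semaphorin and netrin genes of axon guidance (8 of 52, 15.4%) in 1. Below the share were serpins (6 of 62, 9.68%, 4.51 to 19.5%), in all settings, and proteasome and mitochondrial ribosome genes (11 of 113, 9.73%), which changed sides in 2.

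The clustered protocadherins, surface proteins by which neurons tell their own branches from others, were all in 1 loop-dense window, 57 of 57, but that window has 5 loops and falls out when 6 are required or 5 kb pixels are left out. With the grid shifted the share was 42.1%. Each of the 5 loops at chr18:37000001-38000000 had a gene end at an anchor. The first, of 220 kb, left from Pcdha10. Others of 220 and 170 kb joined the Pcdhb19 and Pcdhb20 or Pcdhb21 and Pcdhb22 ends with ends of the gamma genes. One of 340 kb left from Pcdhb21 and Pcdhb22, and one of 125 kb from Pcdhga11. Scores were 4.12 to 5.78.

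Histone genes were in a like position, 17 of 67 (25.4%, 16.5 to 36.9%) in 1 window of 5 loops. Their share was 0 in 3 of the 6 other settings and 71.6% with loops placed by their upstream anchor. In that window, chr13:21000001-22000000, a loop of 70 kb with a score of 6.08 had H2ac13, H2bc13 and H3c10 in one anchor and H1f5, H2ac22, H2bc22 and H3c11 in the other. A loop of 35 kb, the shortest span listed, also ended at H1f5 and H3c11. A loop of 175 kb ended at 5 further histone genes.

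Olfactory and vomeronasal receptors, Zfp zinc fingers, defensins, the prolactin, Psg and Ceacam genes and the Mhc genes were below the share of all genes. Of 1104 olfactory receptor genes 62 (5.62%, 4.41 to 7.13%) were in loop-dense windows, of 354 vomeronasal receptor genes 16 (4.52%, 2.80 to 7.22%), of 388 Zfp zinc finger genes 25 (6.44%, 4.40 to 9.34%) and of 73 defensins 3 (4.11%, 1.41 to 11.4%). Of prolactin, Psg and Ceacam genes there were 0 of 53 and of Mhc genes 0 of 38. Counted by windows, 21 of the 188 that held Zfp genes were loop-dense (11.2%), against 11.4% of all windows with protein-coding genes. The Zfp list was thus low by genes but hardly by windows. For defensins it was 1 of 10 windows, for olfactory receptors 7 of 82 (8.54%) and for vomeronasal receptors 4 of 55 (7.27%). The prolactin, Psg and Ceacam list had 0 of 11 windows and the Mhc list 0 of 7. By share of genes all 6 lists were below in every other setting, some of them by little. With 10 and 25 kb pixels alone vomeronasal receptor genes were at 4.24% and defensins at 4.11%, against 4.38% of all genes. Vomeronasal receptor genes were at 9.89% against 10.4% with the grid shifted, and defensins at 4.11% against 4.92% with 6 or more loops. Of these families 36.0%, 60.5%, 37.4%, 1.37%, 73.6% and 52.6% of the genes were in windows with no loop, against 18.9% of all protein-coding genes. Defensin genes thus lay mostly in windows with a few loops. Keratin genes were at 0 of 109 with none in a loop-free window, but were above the share with the grid shifted (17.4%) and with the upstream anchor as the position of a loop (22.9%). Cadherin and IgLON-type adhesion genes (5 of 67, 7.46%) were below in 5 of the 6, with 47.8% in windows without a loop.

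Olfactory receptor genes lay in 7 loop-dense windows, of which 2 had no loop of 5 kb pixels, and vomeronasal receptor genes in 4, of which 3 had none. Of all loop-dense windows 24.7% had none. The pair described here was chosen after its values were seen. The window at 123 Mb of chromosome 6, with Clec4a and Vmn2r genes, had 8 loops of 175 to 700 kb, 4 of 10 kb and 4 of 25 kb pixels, and 6 of them had a gene end. That at 50 Mb of chromosome 14, with a cluster of olfactory receptor genes beside the ribonuclease genes Ang and Rnase4, had 2 loops of 10 kb and 3 of 25 kb pixels. Its scores ran from 5.60 to 21.1, and 3 of its loops ended at Ang and Rnase4.

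**Figure D5:**
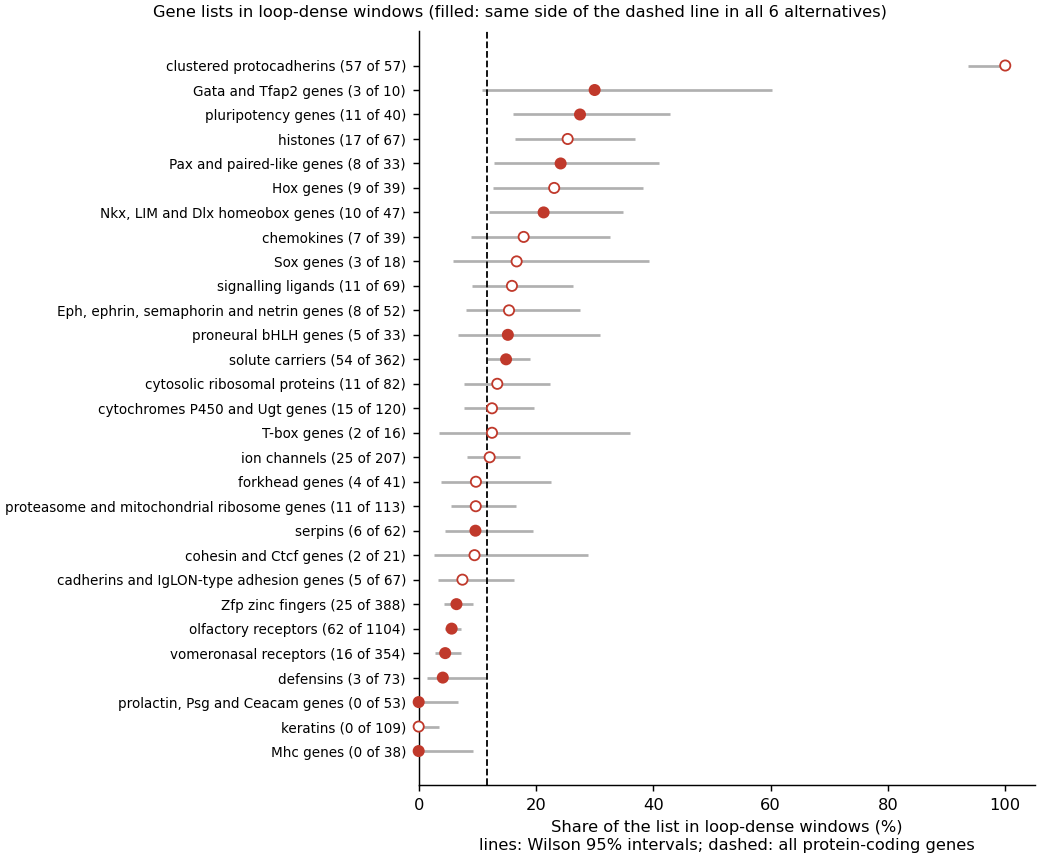
Share of each gene list in loop-dense windows in percent, with the number of genes in brackets; the dashed line is the 11.6% of all protein-coding genes. Grey lines are Wilson 95% intervals. Filled points stay on the same side of the share of all genes in all 6 alternatives, which reuse windows and are not independent. Pax, Nkx, Gata and Tfap2 and pluripotency points lie right of the dashed line, and olfactory, vomeronasal, Zfp and defensin points left of it.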

How the data were processed

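Micro-C loops of 2 siControl samples were analysed from 1 loop list, which gives pooled positions and no value per sample. Juicer 1.5.6 was among the tools and mm10 the genome build, per the submitters' processing notes. Nothing in the sources used here gives the caller, its thresholds, the normalization of the contact map or the read depth, so no interval for depth could be made. The deposited peak score (column 8) is the authors' score per loop, and the deposited signal of the peak pixel (column 15) is the authors' contact map value; both column meanings were inferred from the values and their order, and they were used only to describe loops within the list. The 124 loops of the X chromosome were left out.

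Loops were placed by midpoint in 1 Mb windows, and windows with 5 or more were kept. The members and the gene lists were chosen with earlier results of these data known. Genes came from a RefSeq table of GRCm38.p6, which gives no strand; a gene belongs to the window of its midpoint, and a gene end means either end of a protein-coding record inside an anchor. The main shares of loops, windows and gene lists carry Wilson 95% intervals. No test was made, since loops, genes and windows are not replicates. Promoter entries matched 16457 of 20665 genes (79.6%), under the 80% set for checks over genes, so the planned counts of a motif, and of gene starts, were void. CTCF sites need a genome and were not analysed here.

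Windows named are the 15 with most loops (ties by more separate anchors), the 2 nearest each side of the limit in genome order, and windows of the gene lists; named genes have an end at an anchor, up to 4 a window or list. Some genes that the rule would name are not reported here. Genes named as lying in a window, and the anchors, runs, gene extremes and scores given as highest, were chosen after their values were seen. The scripts were tested on simulated data with planted windows and gene ends, all of which were recovered. Python 3.11.15, pandas 2.3.3, numpy 2.4.6 and matplotlib 3.10.9 were used. Other limits, grids, loop positions, pixel sizes, scores, anchor widths and gene rules were tried as alternatives.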

Additional observations from a re-analysis of the deposited data

How the results depend on the processing

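Of 59 values recomputed under other settings for results other than single gene lists, 48 stayed within the limits set for a change, which are the spread or interval of the value, or 1.5 times a count, with no turn of direction. The number of loop-dense windows was 496 with 4 or more loops, 115 with 6 or more and 111 with 10 and 25 kb pixels alone. With loops placed by their upstream anchor the median number of protein-coding genes per loop-dense window was 8.5, and its difference from windows with 1 to 4 loops was 2.5 in place of 1; that difference was 0 with 10 and 25 kb pixels alone. The median span was 375 kb with 10 and 25 kb pixels alone and 360 kb among loops with a score above the median of their pixel size. The share of loops with a gene end was 54.9% with anchors widened by 5 kb. Its difference from other loops, 0.189 percentage points, was -0.329 with 6 or more loops and -0.547 with 10 and 25 kb pixels alone, and up to 2.42 in the others. The number of gene lists above the share of all genes was 10 with 6 or more loops, in place of 17. The share of 5 kb pixels was 28.5 to 30.7% in the settings where it could be had, and the median span was 5 to 15 kb shorter than elsewhere in all. In the settings where gene lists changed sides, the cause was not tested.

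Where a window starts decides much of its membership. With the grid moved by 500 kb, 231 windows with 1333 loops were loop-dense, and 773 loops were in loop-dense windows of both grids (53.1% of the first set and 58.0% of the second). Of the 251 windows 177 (70.5%) overlapped one of the moved grid.

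No paired analysis was possible because both samples share 1 list without values of their own, and leaving out a sample was not possible for the same reason. Depth is unknown, and few loops in a window cannot be told apart from few called.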
